A study of Mus musculus with 4 samples.

Results

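A set of 653 barcodes of dissociated mouse brain was chosen as pericytes from 36876 barcodes in 4 single-cell libraries. A barcode was a member when it held at least 1000 UMIs (unique molecular identifiers, each standing for a captured transcript), no more than 15.8% of them mitochondrial, at least 8 UMIs summed over Kcnj8, Abcc9, Atp13a5, Higd1b and Vtn, at most 4 of the smooth muscle genes Acta2, Tagln and Myh11, at most 8 of the endothelial genes Cldn5, Flt1 and Ly6c1, and at most 8 of the fibroblast genes Dcn and Col1a1. The 2 limits on UMIs and mitochondrial share kept 30941 barcodes. Since 13 genes chose the members, their levels here are descriptive and no test sets levels in the members against those in other cells. Only age effects were tested between classes.

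Brain pericytes are the mural cells of capillaries, lying within the basement membrane that they share with the endothelium. Endothelial Pdgfb acting on Pdgfrb recruits them, and in the brain they are known for their part in the blood-brain barrier and in the control of capillary diameter. Kcnj8 and Abcc9 encode the pore and the regulatory subunit of a vascular ATP-sensitive potassium channel, Atp13a5 a P-type ATPase, Higd1b a mitochondrial protein of the hypoxia-inducible domain family, and Vtn the adhesive glycoprotein vitronectin.

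The question of the study was what age and fermentable fibre (inulin) in the diet do to microglia, and its libraries hold the other cells of the brain as well. Each library came from the whole brain of 1 male C57BL/6J mouse, perfused, dissociated with enzymes at 37 °C and sequenced by the droplet 3′ method. The adult mice came from an in-house colony at 1 to 2 months of age. The aged mice came from the National Institute on Aging at 21 to 22 months. Age and source of the mice thus cannot be told apart. All were first kept in the same room on the same standard diet for 8 weeks. The 2 adult mice began their diet at an age of 3 to 4 months and the 2 aged mice at 23 to 24 months. At each age 1 mouse ate 0% inulin and 1 ate 5% inulin for 8 weeks, and both diets held 1% cellulose. The adult mouse on 0% inulin gave 9246 barcodes and 115814810 UMIs, the adult mouse on 5% inulin 10256 and 111648775, the aged mouse on 0% inulin 7881 and 88248117, and the aged mouse on 5% inulin 9493 and 108131200. Values for the 4 mice are given below in this order. With diets pooled each age had n = 2 mice, so an exact permutation test of a single value cannot give a two-sided p below 0.333.

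The label held for only part of the members. Of the 653, 499 carried at least 3 UMIs of Kcnj8, Abcc9, Atp13a5 and Higd1b per 10000 UMIs, and the other 154 reached the threshold largely through Vtn, 125 of all members having no UMI of those 4 genes. These 154 barcodes, at 68, 49, 20 and 17 in the 4 mice, held 85.3% of all members' UMIs. In 113 of them Ttr, the thyroid hormone carrier made in bulk by the choroid plexus, took more than 10% of UMIs, and their leading genes against pericyte-like members were Sostdc1, Igfbp2, Ttr, Trpm3, Prlr, Kcnj13, Folr1 and Kl, the most specific of which mark choroid plexus epithelium. The remaining 41 were led by Npy, Fabp7, Chgb, Sag, Apod and Tph1 and were left unnamed. Among these genes Npy, Chgb, Sag and Tph1 were absent in at least 1 mouse, whereas Fabp7 and Apod were found in each. A further 63 of the 499 held more than 2 microglial UMIs and 65 more than 2 astrocyte UMIs, which left 387 barcodes, here called pericyte-like members.

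The 387 pericyte-like members came as 76, 153, 64 and 94 barcodes with 267787, 514455, 220080 and 298159 UMIs, and their median depth was 3581, 3339, 3444 and 3227 UMIs. The limit of 3 UMIs per 10000 and the removal of barcodes with more than 2 microglial or astrocyte UMIs were set after values had been seen, the latter after the age calls in the 499 were known, so the counts of calls below are given for all 3 sets. Scrublet, which scores barcodes against simulated doublets, called 23 of the 653, 20 of the 499 and 0 of the 387. Of the members, 2 had a barcode sequence that also occurred in another library.

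**Figure D1:**
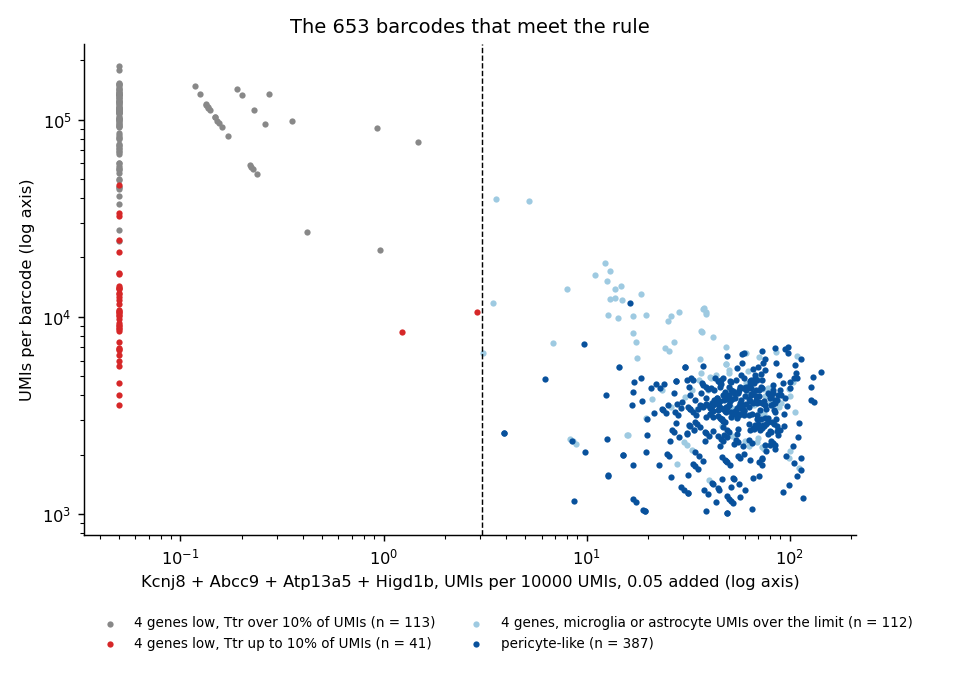
Each point is 1 of the 653 barcodes: the x axis gives UMIs of Kcnj8, Abcc9, Atp13a5 and Higd1b per 10000 UMIs with 0.05 added, the y axis all UMIs, both on log axes, and the dashed line marks 3 per 10000. The 113 Ttr-rich barcodes (grey) lie at high depth and low pericyte genes, and the 387 pericyte-like members (dark blue) form the cloud on the right.

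At the edge of the rule, the 62 barcodes just inside it with 8 or 9 pericyte gene UMIs had a median of 83054 UMIs and 30.0% of them from Ttr, and 41 had no UMI of the 4 genes. The 107 barcodes just outside with 6 or 7 such UMIs had a median of 73577 UMIs and 27.6% from Ttr, with 81 lacking the 4 genes. At or over 3 UMIs of the 4 genes per 10000 were 7 of the 62 and 6 of the 107. Of the 2756 barcodes with at least 8 pericyte gene UMIs, 63.5% exceeded the endothelial limit and 23.7% were members.

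Pericyte-like members held high levels of both channel subunits, for which they were chosen. Levels are CPM, the UMIs of a gene summed over the cells of a mouse and scaled to 1000000 UMIs of all genes, averaged over the 4 mice, and were set beside endothelial cells (7856 barcodes), smooth muscle cells (692) and fibroblasts (170) chosen by at least 16 UMIs of their own markers and by limits on the others. Endothelial cells were allowed at most 2 UMIs of the 5 pericyte genes and fibroblasts at most 7, so low levels of these genes there follow from the choice, whereas smooth muscle cells had no such limit. Kcnj8 averaged 1139 ± 173 CPM (SD, n = 4) with 896 in its lowest mouse, against 1.41 in endothelial cells, 7.38 in smooth muscle cells and 2.13 in fibroblasts. Abcc9 averaged 1585 ± 237 CPM and Atp13a5 1644 ± 89.9 CPM, and the highest of the 3 other classes stood at 7.33 and 25.1 CPM. Vtn was by far the most abundant of the 5 genes at 18832 ± 4148 CPM, and it was also found at 532 CPM in smooth muscle cells. Higd1b was less selective, at 1303 CPM against 175 in smooth muscle cells.

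Of the 12 highest ratios to the other classes, with 10 CPM added to each class, 4 were those of rule genes, Higd1b not being among them. Among the others were Pla1a, a phosphatidylserine phospholipase, at 469 ± 36.0 CPM against at most 3.65, Ggt1, the glutathione-cleaving gamma-glutamyltransferase, at 301 ± 20.4, and the amino acid transporter Slc6a20a at 980 ± 66.2. Ifitm1 (1530 ± 113 CPM), the zinc and manganese exporter Slc30a10 (470 ± 17.7), the ADP-ribosyltransferase family member Art3 (835 ± 151), the TGF-beta family ligand Nodal (189 ± 39.3) and the phosphodiesterase Pde8b (548 ± 25.3) were the rest. These genes were picked by their ratio to the other classes in the same mice. In every mouse they lay higher in pericyte-like members than in any library of the 3 other classes. The Ttr-rich members held Kcnj8 at 1.00 CPM, Abcc9 at 0.979 and Vtn at 128.

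**Figure D2:**
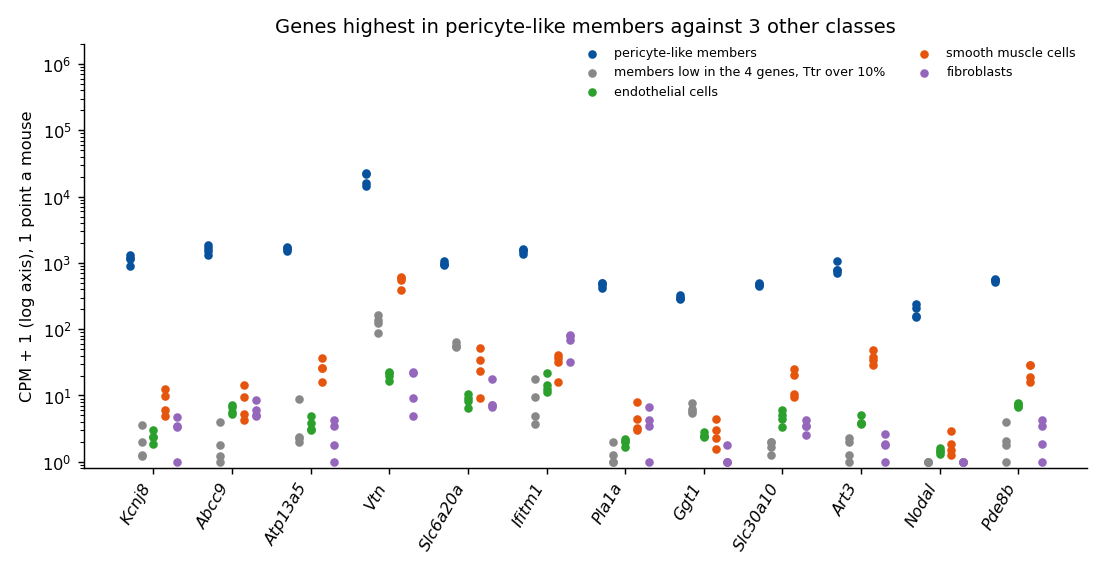
Each point is 1 mouse, and the y axis gives CPM with 1 added on a log axis for the 12 genes with the largest ratio of pericyte-like members to the highest of 3 other classes. Pericyte-like members (blue) lie above all other classes for each gene, whereas Ttr-rich members (grey) lie among or below the other classes for most genes, with Kcnj8 at 1.00 CPM.

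Variation from cell to cell was described in pericyte-like members thinned to 2000 UMIs each, which left out 11, 23, 11 and 22 shallower barcodes. The genes that varied most, by variance over mean, were in part shared between libraries, 11 genes being in the first 50 of every mouse. Among them were Malat1, Gm42418, mt-Rnr1, mt-Rnr2 and mt-Cytb, which are abundant transcripts of every cell, together with Vtn, Mgp, Ptn, Itih5 and Spp1. Spp1, the secreted phosphoprotein osteopontin, was found in 11.5% to 22.2% of these thinned cells of a mouse and Mgp, the calcification inhibitor matrix Gla protein, in 75.4% to 86.8%. Itih5, a hyaluronan-binding heavy chain, was found in 20.8% to 33.1% of cells, whereas the growth factor pleiotrophin (Ptn) was found in at least 98.1%.

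The share of barcodes that met the rule was lower in both aged mice. It was 2.20% (95% exact binomial interval 1.88 to 2.55) and 2.67% (2.34 to 3.04) in the adult mice and 1.63% (1.34 to 1.96) and 1.82% (1.53 to 2.14) in the aged mice, and the ages did not overlap (exact permutation test, two-sided p = 0.333, the smallest possible). With the 4 genes required the shares were 1.33%, 2.10%, 1.33% and 1.60% and overlapped (p = 0.667, same exact test). The pericyte-like members made up 0.965% (0.761 to 1.21), 1.79% (1.52 to 2.09), 0.965% (0.744 to 1.23) and 1.19% (0.967 to 1.46), which also overlapped (p = 0.667, same exact test), and the highest value was that of the adult mouse on 5% inulin. A lower share of pericyte-like members in aged brain was therefore not detectable with 2 mice an age, and the intervals cover counting error only.

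Age was compared on UMIs summed per mouse with edgeR's quasi-likelihood test, a gene being called at a Benjamini-Hochberg adjusted p under 0.05 and a fold above 1.5. In all 653 members 28 genes were higher and 14 lower in aged mice of 11962 tested (0.351% called). More genes were lower with an upper limit on UMIs (16 higher, 128 lower) and a threshold of 16 pericyte UMIs (1 and 23). So they were with stricter exclusion (0 and 23) and after thinning to 2000 UMIs (3 and 20). DESeq2 (60 and 22) and removal of Scrublet calls (14 and 4) kept more higher genes. In the 499 with the 4 genes 14 were higher and 82 lower of 7605 (1.26% called), but after removal of Scrublet calls only 2 were lower. In the 387 pericyte-like members 6 were higher and 14 lower of 5381 (0.372% called). DESeq2 called 0 higher and 7 lower in the 387 barcodes. The 20 edgeR calls were lost without the adult mouse on 5% inulin, which gave 153 of the 387 barcodes. That fit leaves 1 adult mouse, so its spread comes from the aged mice alone. The loss does not show that the changes rested on the omitted mouse. The CPM of each mouse are given below for the genes named. CPM in the comparisons by age and diet are scaled to the tested genes by TMM and so differ from the levels above. The sums over all 653 members are mostly those of the 154 barcodes low in the 4 genes, so the genes are described below from the pericyte-like members unless stated.

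In all members 11 of 29 interferon-response genes tested were called higher in aged mice (0.234% of all genes were), and 29 of 29 had a positive change, with a median log2 change of 1.30 against 0.00 for all genes. Some other settings called few genes of any kind higher: 1 with a threshold of 16 pericyte UMIs, 0 with stricter exclusion, 3 after thinning. Most of these 11 interferon calls were thus lost there. Ifi27l2a stood at 41.2, 34.6, 227 and 195 CPM (log2 change 2.48 ± 0.17 SE, edgeR adjusted p = 0.00084), Ifitm3 at 158, 246, 604 and 648 (1.63 ± 0.20, adjusted p = 0.029) and Isg15 at 5.22, 8.55, 65.3 and 28.4 (2.79 ± 0.38, adjusted p = 0.034). Both aged mice were above both adult mice for each of these genes. The mix of cells in these sums differed as well, between mice of the same age as well as between ages. The 5 pericyte rule genes summed to 1594, 3006, 4660 and 7295 CPM, and the 25 pericyte identity genes to 2391, 4116, 4773 and 7809 CPM, 25 of 25 being positive with a median of 0.92 and 0 called. The 10 choroid plexus and ependymal markers, with Ttr the most abundant and none at 0 in every mouse, summed to 294936, 249899, 250480 and 234102 CPM and 9 of 10 were negative. The 15 microglial markers summed to 733, 955, 982 and 1947 CPM and 13 were positive. The part of this mix in the interferon changes was not tested. The Ifi27l2a change was negative in other selections, at -1.41 with an upper limit on UMIs and -0.36 with a threshold of 16 pericyte UMIs, and the gene was too low to be tested in pericyte-like members.

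Only 12 of the 30 interferon genes were abundant enough to be tested in pericyte-like members, and 0 were called there. Of these 12, 10 had a positive change with a median of 0.38 on the log2 scale. Ifitm3, which restricts virus entry, stood at 782, 910, 1029 and 1266 CPM (0.44 ± 0.16 SE, edgeR adjusted p = 0.44), and Ifit1 at 12.4, 15.1, 74.9 and 52.4 CPM (2.10 ± 0.50, adjusted p = 0.089). Of the MHC class I presentation genes 12 were tested, 9 had a positive change (median 0.40) and 0 were called. H2-T23 at 24.8, 25.9, 84.9 and 78.6 CPM gave an adjusted p of 0.078 (edgeR), and H2-D1 stood at 348, 471, 575 and 655 CPM (adjusted p = 0.34). For the 4 genes named both aged mice lay above both adult mice, without passing the test.

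In pericyte-like members 6 heat shock and chaperone genes fell in aged mice. Of 17 genes listed and tested, these 6 were called lower (0.26% of all genes were), 16 had a negative change and the median log2 change was -0.84 against 0.00 for all genes. Hspb1, the small heat shock protein that binds unfolded proteins and actin (chr5:135887919-135889563, plus strand, GRCm38), stood at 1167, 1074, 430 and 513 CPM. Its log2 change was -1.24 ± 0.17 (SE, edgeR adjusted p = 0.0030). The adult mice lay above the aged mice with no overlap and differed among themselves by far less than between ages.

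Both cytosolic forms of the chaperone Hsp90 fell. Hsp90ab1, the constitutive form, stood at 2214, 2031, 1129 and 1101 CPM (-0.93 ± 0.14 SE, edgeR adjusted p = 0.0037), and Hsp90aa1, the stress-inducible form, at 1059, 988, 520 and 618 CPM (-0.84 ± 0.16, adjusted p = 0.024). Hspa8, the constitutive Hsp70 chaperone, stood at 1775, 1794, 1069 and 1030 CPM (-0.77 ± 0.14, adjusted p = 0.017) and its co-chaperone Dnaja1 at 579, 581, 300 and 300 CPM (-0.95 ± 0.17, adjusted p = 0.014). The mitochondrial co-chaperonin Hspe1 fell from 240 and 253 to 110 and 135 CPM (-0.998 ± 0.213, adjusted p = 0.043). In all 6 genes both aged mice were below both adult mice. None of the 6 was called in the 653 members, where their log2 changes ran from -0.37 to -0.69 and their adjusted p from 0.098 to 0.30 (edgeR). There Hsph1 was the single called gene of the 17, 15 were negative and the median was -0.56. In the 499 with the 4 genes Hspb1, Hsp90ab1 and Dnaja1 were called, but after removal of Scrublet calls only 2 genes of any kind were lower there. Of 15 settings of the comparison, 14 called Hspb1, Hsp90ab1 and the matrix gene Aspn, described below. The setting that did not was the omission of the adult mouse on 5% inulin. Settings that omit 1 mouse leave 1 mouse at its age. A call lost there does not show that the change rested on the omitted mouse. The upper limit on UMIs and the removal of Scrublet calls removed no pericyte-like barcode, so both repeat the main fit. Hspa8 was called in 12 of the 15, Hsp90aa1 in 11, Dnaja1 in 10 and Hspe1 in 9. These 4 genes were not called with the replicate block, which equals a diet term, or without either the adult mouse on 5% inulin or the aged mouse on 0% inulin, and DESeq2 did not call Dnaja1 and Hspe1.

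The other heat shock genes listed did not pass the test, and Hspa1a and Hspa1b were less even between mice. Hspa1a stood at 389, 292, 99.9 and 243 CPM and Hspa1b at 290, 130, 79.9 and 139 CPM, the latter overlapping between ages, with adjusted p of 0.25 and 0.53 (edgeR). Hsph1 at 132, 115, 70.0 and 52.4 CPM (-1.01 ± 0.29 SE) and Dnajb1 at 103, 99.4, 70.0 and 30.0 CPM (-1.09 ± 0.35 SE) had changes of like size with larger errors. Hspa5 and Hsp90b1, chaperones of the endoplasmic reticulum, were at -0.32 ± 0.18 and -0.14 ± 0.17 and were not called, and Cryab, the lens crystallin that is also a small heat shock protein, had the sole positive change at 0.10 ± 0.21.

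Of the 6 called genes, 3 have a promoter window in the RefSeq table (GRCm38.p6, 250 bases before to 50 after the start). The 2 with the most matches to a pair of inverted heat shock units, GAANNTTC or TTCNNGAA, are shown since the genes moved together, with matches in capitals. Either motif reads the same on both strands.
Hspb1, chr5:135887669-135887968, plus strand: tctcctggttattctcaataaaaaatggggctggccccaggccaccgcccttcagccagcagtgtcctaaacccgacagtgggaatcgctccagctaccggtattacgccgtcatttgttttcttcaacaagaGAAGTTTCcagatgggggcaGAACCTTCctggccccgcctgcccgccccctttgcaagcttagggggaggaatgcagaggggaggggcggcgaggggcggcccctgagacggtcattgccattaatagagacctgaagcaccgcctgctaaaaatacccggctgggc
Hspe1, chr1:55087898-55088197, plus strand: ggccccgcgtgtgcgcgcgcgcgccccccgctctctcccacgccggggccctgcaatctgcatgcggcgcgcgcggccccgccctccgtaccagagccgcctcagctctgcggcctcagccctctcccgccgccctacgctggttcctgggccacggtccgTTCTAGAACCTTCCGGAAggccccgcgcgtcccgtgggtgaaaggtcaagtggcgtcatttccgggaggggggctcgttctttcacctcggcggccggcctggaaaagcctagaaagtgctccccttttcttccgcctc
The Hspb1 window holds 2 matches, the Hspe1 window 3 that overlap in a single run, and the Dnaja1 window 1. Dnaja1 has 3 windows listed, and its count is for the first. Among the 32851 promoter windows listed, 15.1% hold a match, and a match describes the letters only.

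**Figure D3:**
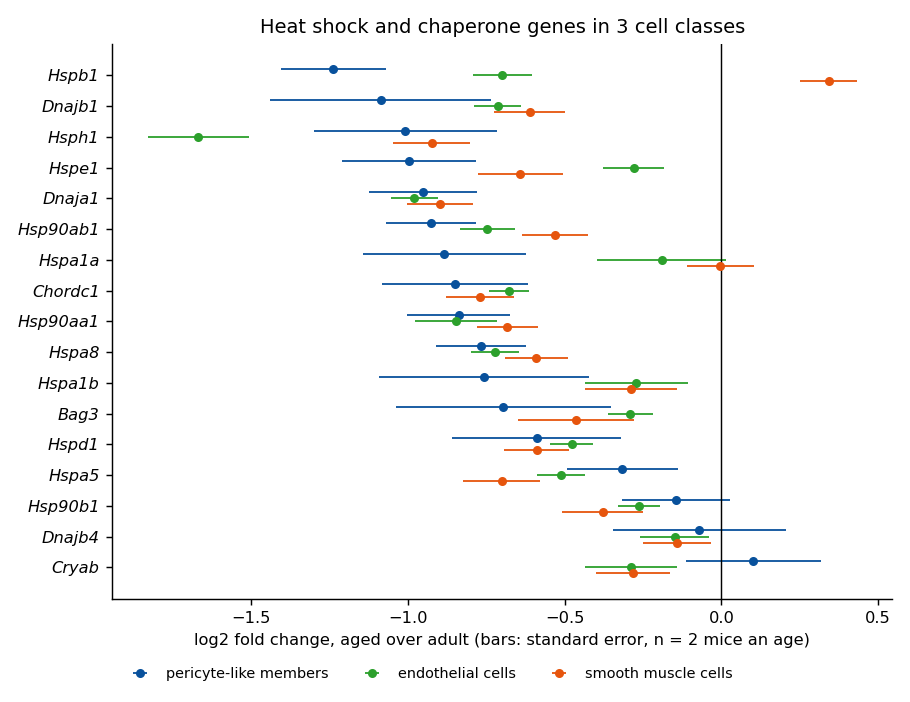
Points are log2 fold changes of aged over adult mice (n = 2 mice an age) for 17 heat shock genes, with bars of 1 standard error, in pericyte-like members, endothelial cells and smooth muscle cells. Most points lie left of 0 in the 3 classes, and Hspb1 in smooth muscle cells lies right of it at 0.34.

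Aspn, P4ha1 and Serpinh1 were also lower in aged mice. Aspn, the small leucine-rich proteoglycan asporin, stood at 563, 564, 250 and 232 CPM (-1.23 ± 0.18 SE, edgeR adjusted p = 0.0033). P4ha1, a subunit of the collagen prolyl hydroxylase, stood at 244, 259, 130 and 101 CPM (-1.15 ± 0.22, adjusted p = 0.017), and Serpinh1, the collagen chaperone of the endoplasmic reticulum, at 559, 586, 360 and 258 CPM (-0.91 ± 0.19, adjusted p = 0.030). These 3 genes did not overlap between ages. Col1a2 went the same way at 219, 214, 110 and 120 CPM without passing the test (adjusted p = 0.089, edgeR), and of 21 basement membrane genes tested only Serpinh1 was called, the median change being -0.15. Pde10a, a cyclic nucleotide phosphodiesterase, was lower as well, at 137, 102, 30.0 and 37.4 CPM (-1.73 ± 0.35, adjusted p = 0.026). Of the 15 settings, 9 called P4ha1, 10 Serpinh1 and 9 Pde10a, and DESeq2, thinning to 2000 UMIs, the replicate block and the omission of the adult mouse on 5% inulin each lost all 3. In the 653 members none of Aspn, P4ha1, Serpinh1 and Pde10a was called, and in the 499 all of them were. After removal of Scrublet calls from the 499 only 2 genes of any kind were lower.

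The higher genes included both cold-inducible RNA-binding proteins. Rbm3 stood at 137, 145, 315 and 359 CPM (1.26 ± 0.19 SE, edgeR adjusted p = 0.0037) and Cirbp at 45.5, 67.0, 165 and 161 CPM (1.45 ± 0.27, adjusted p = 0.016). Cthrc1, a secreted protein with collagen-like repeats, stood at 207, 194, 375 and 494 CPM (1.14 ± 0.18, adjusted p = 0.0054), and Rrad, a small GTPase that binds calcium channel subunits, at 257, 233, 430 and 438 CPM (0.84 ± 0.17, adjusted p = 0.024). For these 4 genes no more than 23.3% of the UMIs of a mouse came from 1 cell. Of the 15 settings, 12 called Rbm3, 11 Cirbp, 11 Cthrc1 and 9 Rrad. DESeq2 and the omission of the adult mouse on 5% inulin lost these 4 genes, and the replicate block lost all but Rbm3. Junb, a subunit of the AP-1 transcription factor, was at 70.4, 71.3, 240 and 157 CPM (1.44 ± 0.27, adjusted p = 0.015, called in 11 settings, not with DESeq2 or the replicate block), with 21.2% to 41.2% of its UMIs in each mouse from 1 cell, and it was the only called gene of 17 immediate early genes, whose median change was -0.06. The immunoglobulin light chain Igkc was at 0, 2.16, 115 and 48.7 CPM (adjusted p = 0.0037, edgeR), and 10 settings called it, DESeq2 not among them. It was called between ages in endothelial and smooth muscle cells as well, and the cells it came from were not tested. Of these 6 genes Cirbp, Rrad and Igkc were also called in the 653 members, and all but Junb in the 499. After removal of Scrublet calls from the 499, 0 genes of any kind were called higher.

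**Figure D4:**
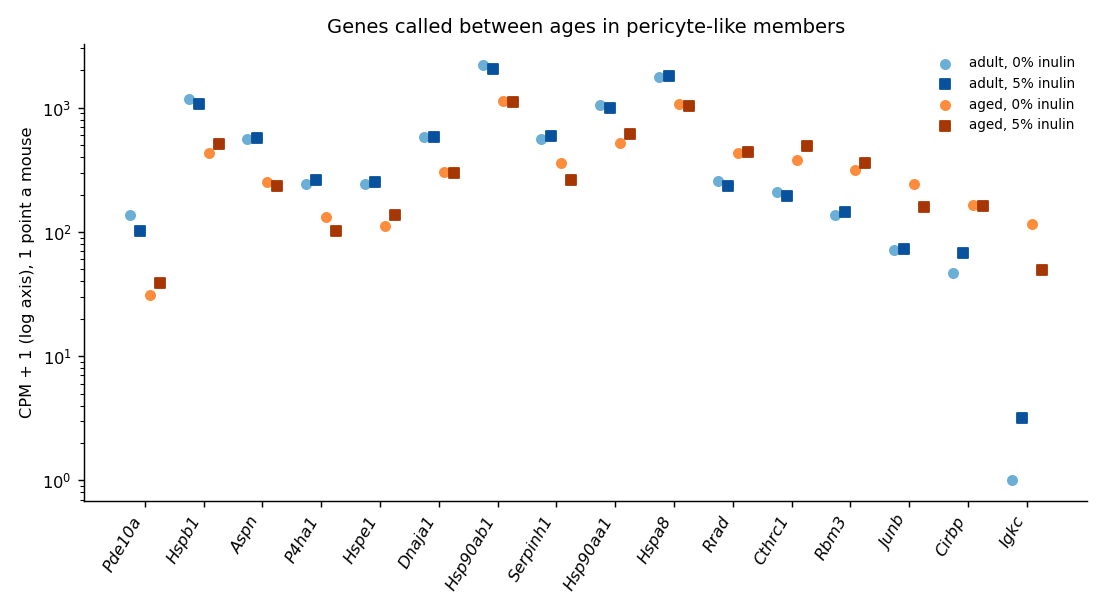
Each point is 1 mouse and the y axis gives CPM with 1 added on a log axis for 16 of the 20 genes called between ages in pericyte-like members, lower genes first. The 4 genes not drawn are Ttr, Enpp2, S100a8 and S100a9. Genes were drawn only where both aged mice (orange, brown) lie on the same side of both adult mice (blue).

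Some called genes belong to other cell types. Ttr stood at 11787, 9617, 6056 and 7073 CPM in pericyte-like members (-0.70 ± 0.12 SE, edgeR adjusted p = 0.0074) and Enpp2, which is also abundant in choroid plexus, at 1217, 970, 515 and 592 CPM (-0.97 ± 0.17, adjusted p = 0.012). The replicate block called neither gene. The 10 choroid plexus and ependymal markers summed to 12502, 10407, 6861 and 7825 CPM with Ttr the most abundant and none at 0 in every mouse. In endothelial cells, which are not known to make it, the median share of Ttr was 0.624%, 0.531%, 0.305% and 0.334% of UMIs, also lower in the aged mice, while its summed level changed by -0.09 (adjusted p = 0.73, edgeR). S100a8 and S100a9, the calprotectin subunits of neutrophils, were called lower, but 96.1% and 96.8% of their UMIs in the adult mouse on 5% inulin came from 1 cell. The 15 microglial markers summed to 358, 517, 527 and 439 CPM with C1qb the most abundant, and the 14 astrocyte markers to 2902, 2754, 2881 and 2562 CPM with Mfge8 the most abundant. Neither list had a gene called, and the part of such transcripts in the changes of the heat shock genes, Aspn, P4ha1 and Serpinh1 was not tested.

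No gene of pericyte identity passed the test between ages. All 25 genes listed beside the rule genes were tested and 0 were called, 12 being positive and 13 negative with a median of -0.06, whereas in the sums over all members, given above, 25 of 25 were positive. Rgs5, the regulator of G-protein signalling that is among the most used pericyte markers, stood at 9250, 7482, 6451 and 7137 CPM (-0.30 ± 0.12 SE, edgeR adjusted p = 0.48) and Pdgfrb at 2628, 2729, 2393 and 2134 CPM (-0.24 ± 0.13, adjusted p = 0.58). For both genes the aged mice were the lower, by less than the test resolved. Vtn, a rule gene and so given as a description, stood at 16128, 17840, 25183 and 24373 CPM, higher in both aged mice.

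The other lists had no called gene in pericyte-like members, and those called in all 653 members were the transporters Slc6a13 (higher) and Slc1a3 (lower), the gap junction gene Gja1 (lower) and H2-T23 (higher). Of 18 vasoactive genes, among them the nucleotide receptor P2ry14 at 1151, 1178, 1084 and 1120 CPM, the median change was -0.09, and of 16 transporter genes it was -0.05. The 14 contractile genes had a median of -0.13, the 9 Notch genes -0.24 and the 18 TGF-beta and BMP genes -0.09. Respiratory chain genes encoded in the nucleus (30 tested) and in mitochondria (12 tested) had medians of 0.13 and 0.12, and 15 glycolysis and hypoxia genes 0.19. Fth1, the ferritin heavy chain, came nearest among 15 iron, copper and redox genes at 1316, 1303, 2124 and 1891 CPM (0.61 ± 0.14, edgeR adjusted p = 0.077). Of the remaining lists, the 5 senescence genes tested, such as Cdkn1b, had a median of -0.10, the 10 inflammation genes 0.06 and the 14 lipid and amyloid genes 0.11, and the 9 genes of crosstalk with the endothelium -0.12. The lists with few genes tested were those of complement (4 genes, median -0.26), fibrillar matrix (3 genes, -0.05) and PDGF signalling (2 genes, -0.25).

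**Figure D5:**
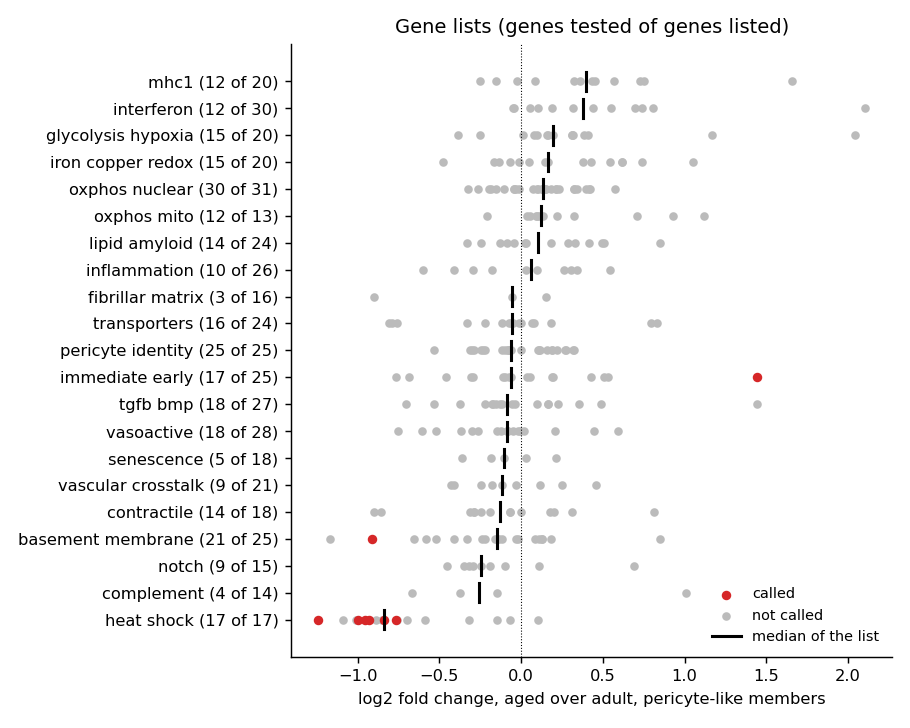
Points are log2 fold changes of aged over adult mice in pericyte-like members for the genes of 21 lists, with called genes in red and the median of each list as a bar. The heat shock list is lowest with a median of -0.84 and 6 called genes, and the MHC class I list is highest at 0.40 with 0 called.

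Heat shock genes were called lower in both neighbouring vascular classes too. In endothelial cells 159 of 16117 genes were called between ages (0.987%) and in smooth muscle cells 327 of 12580 (2.6%). In endothelial cells, where 0.397% of genes were called lower, 8 of the 17 heat shock genes were called lower and 17 were negative (median -0.51), and in smooth muscle cells, where 0.763% were, 9 were called lower and 16 were negative (median -0.59). Rbm3 and Cirbp were called higher in both classes too. The classes came from the same 4 mice and libraries and are thus no independent repeats.

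Hspb1, Aspn, Mgp and Ptn were among the genes whose age effect differed from that in smooth muscle cells. Both classes came from the same 4 mice, so the fit over the 8 sums held a term for each mouse besides class and the interaction of class with age, and 35 genes were called with a higher and 48 with a lower effect in pericyte-like members of 11820 (0.702% called). The same fit called 240 genes in all members (1.82%) and 83 in the 499 (0.68%). Hspb1 in smooth muscle cells stood at 944, 967, 1188 and 1235 CPM (log2 change 0.34, adjusted p = 0.091, edgeR), and its effect in pericyte-like members was lower by 1.60 on the log2 scale (difference -1.60 ± 0.22 SE, adjusted p = 2.3e-10). Aspn at 291, 312, 341 and 406 CPM in smooth muscle cells differed by -1.55 ± 0.24 (adjusted p = 6.3e-08, edgeR). In endothelial cells Hspb1 was called lower with age too, whereas Aspn was not called. Mgp was at 784, 678, 2139 and 2133 CPM in smooth muscle cells but at 3406, 3561, 4047 and 3700 CPM in pericyte-like members, a difference of -1.41 ± 0.20 (adjusted p = 3.6e-09, edgeR). Ptn was at 244, 194, 67.8 and 63.9 CPM in smooth muscle cells and at 9179, 9761, 8799 and 8691 CPM in pericyte-like members, a difference of 1.59 ± 0.22 (adjusted p = 1.7e-09, edgeR). In this fit edgeR took the spread around its trend as the same for every gene, with no weight for a gene's own spread, and these adjusted p are smaller than those of edgeR's newer quasi-likelihood form, which ranged from 0.00071 to 0.0013 for the 4 genes. DESeq2 called the 4 genes as well. Smooth muscle cells had no limit on pericyte genes, and their median UMIs of the 5 pericyte rule genes were 5, 4, 2 and 2. Of 24 pericyte identity genes tested there, Rgs5 (log2 change -0.85) and Pdgfrb (-0.71) were called lower with age and Igfbp7 (0.68) higher. The part of this in the Ptn difference was not tested.

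Against endothelial cells 10 genes were called with a higher and 18 with a lower effect of 15014 (0.186% called), against 4 in all members (0.0253%) and 147 in the 499 (0.95%), but in pericyte-like members edgeR's newer form and DESeq2 each called 0. Among the genes with the largest differences, 86.2% of S100a6 UMIs and 86.5% of Lcn2 UMIs in the adult mouse on 5% inulin came from 1 cell, and both aged mice had Mbp in 1 cell each. The differences called against endothelial cells thus depended on the form of the fit.

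In smooth muscle cells 23 of 29 interferon genes tested were called higher with a median of 1.87 (1.84% of all genes were called higher). Endothelial cells had 2 of 30 called higher with a median of 0.29 (0.589% of all genes). Smooth muscle cells also had 12 of 19 MHC class I genes called higher, where pericyte-like members had 0 of 12. The sums of smooth muscle cells held 2364679, 2587621, 3608815 and 1968926 UMIs, more than those of pericyte-like members in each mouse, and the sums over all members, of 5658941, 4692093, 1917321 and 1551987 UMIs, had 11 of 29 interferon and 1 of 18 MHC class I genes called higher. Whether either list differed in its age effect between classes was not tested.

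No gene was called between diets by the same test in any of the 3 sets (0% called), with 278, 230 and 156 genes at an unadjusted p under 0.05 in the 653, 499 and 387 barcodes, and DESeq2 called 11, 1 and 0. With age as a term beside diet the same test called 261 genes in the 653 barcodes, 219 higher and 42 lower on 5% inulin, and 0 in the 387. In pericyte-like members the largest differences by the naming rule were those of Anxa1, the phospholipid-binding annexin, at 0, 60.5, 5.00 and 56.2 CPM (adjusted p = 0.87, edgeR) and Acaa2, a mitochondrial enzyme of fatty acid oxidation, at 86.9, 164, 84.9 and 172 CPM (adjusted p = 1.00). Ednrb, the endothelin B receptor, at 91.0, 21.6, 79.9 and 33.7 CPM and the immediate early gene Egr1 at 132, 25.9, 79.9 and 48.7 CPM were lower in both mice on 5% inulin. In the adult mouse on 5% inulin 57.1% of Anxa1 UMIs came from 1 cell, and of Egr1 UMIs 50% did in each mouse on 0% inulin. With 1 mouse for each age and diet, a diet effect that differs between ages could not be tested.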

How the data were processed

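Per the labels and the study's methods, the authors aligned 10x Chromium 3′ v3 reads to GRCm38 and counted UMIs with Cell Ranger 3.1.0. The deposited values are counts, whole UMIs per gene and barcode, in 1 matrix per mouse. The members and gene lists were chosen with earlier results of these data known. Counts were summed per mouse and cell class, and genes with enough counts by edgeR's filter were fitted with edgeR 4.0.16 (TMM, quasi-likelihood, R 4.3.3) with age or diet as the single factor, or with mouse, class and the interaction of class with age for differences between classes. DESeq2 1.42.0 was an alternative. P-values were adjusted over all genes tested. Shares were compared with an exact permutation test in SciPy 1.17.1. Doublets were scored with Scrublet in Scanpy 1.11.5 and kept.

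The genes named were the 13 rule genes, called genes by size of change (up to 12 a direction, at a mean of at least 20 CPM and with mice of the 2 groups not overlapping), the called and the 2 most abundant genes of each list, up to 6 calls of each difference between classes, the 12 highest ratios to other classes (at least 50 CPM), genes of high variance in every mouse and the most abundant marker of each other cell type. The same rule was applied to the 387 barcodes, and other heat shock, interferon, MHC class I and identity genes, Enpp2, Col1a2, Mgp, Ptn and Fth1 were named after their values were seen where the rule did not reach them. Alternatives were other size factors, no filter, thinning to 2000 UMIs, other thresholds, 3 sets of barcodes and 4 forms of the edgeR fit. Results for a few genes that the rule names are not reported here. The scripts were tested on simulated data. Each mouse gave 1 library, and p-values rest on 4 mice.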

Additional observations from a re-analysis of the deposited data

Results flagged for a closer look

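In all members 4 genes had an age effect that differed from that in endothelial cells by the interaction term and 240 from that in smooth muscle cells, and 10 of these differences are given, as the log2 change in all members minus that in the other class. Against endothelial cells these were Igkc (-5.11), Rtp4 (2.68), Cyp1b1 (-7.97) and Lyz2 (-1.83). Against smooth muscle cells 6 of the 240 were Gpc3 (2.59), Ptn (1.75), Ackr3 (2.22), Serpini1 (1.87), Ogn (-2.02) and C4b (-4.00). The sums over all members are mostly those of barcodes low in the 4 pericyte genes.

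In pericyte-like members 28 genes differed against endothelial cells and 83 against smooth muscle cells, and 10 such differences are given. Against endothelial cells they were those of Spp1 (-4.73), Lcn2 (-4.85), Mbp (12.58), S100a6 (-2.45) and Ifi203 (-1.55), and against smooth muscle cells those of S100a9 (-4.25), Spp1 (-4.40), S100a8 (-5.18), Ogn (-2.67) and Bgn (-1.67). Several rest on single cells: in the library where they were highest, 1 cell gave 100% of Mbp, 86.5% of Lcn2, 86.2% of S100a6, 96.1% of S100a8 and 96.8% of S100a9 UMIs. Spp1 was spread over 13 to 22 cells of each mouse, and Bgn, a small leucine-rich proteoglycan, stood at 546, 609, 485 and 498 CPM in pericyte-like members, where it was not called. The causes of these differences were not tested.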

How the results depend on the processing

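Between ages, all members gave 42 calls. DESeq2 gave 82, no filter 769, thinning to 2000 UMIs 23, an upper limit on UMIs 144, removal of Scrublet calls 18, a threshold of 16 pericyte UMIs 24, stricter exclusion 23, the 499 barcodes with the 4 genes 96 (2 without Scrublet calls) and the 387 pericyte-like members 20. Leaving out 1 mouse gave 52 to 579. In pericyte-like members the 20 calls became 7 with DESeq2, 62 with no filter, 11 after thinning and 0 to 51 without 1 mouse. The newer form of the edgeR fit, a robust prior and both gave 21, 29 and 25.

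Replicate numbers follow accession order and coincide with diet, so they do not pair mice by design, and same-diet mice deviated together with a correlation of 0.264 in all members and 0.0244 in pericyte-like members. The replicate block added diet as a term to the comparison of ages, which gave 914 calls in all members and 5 in pericyte-like members. For the comparison of diets the block was age, the mice of 1 age forming a pair, and the calls were 261 and 0.

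Diet gave 0 calls in all members, 11 with DESeq2, 128 with no filter and 0 to 27 without 1 mouse. The 499 gave 1 with DESeq2 and 2 without Scrublet calls, and pericyte-like members 17 with no filter and 3 to 17 without 1 mouse.

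For the difference in age effect against endothelial cells, all members gave 4 calls, and 27 with DESeq2, 20 with RLE size factors, 412 with no filter, 43 after thinning, 108 with the upper UMI limit, 22 with the threshold of 16, 26 with stricter exclusion, 2 with the newer form, 19 with the robust prior, 1 with both, 147 in the 499 (12 with DESeq2, 13 without Scrublet calls), 28 in pericyte-like members and 16 to 262 without 1 mouse. Pericyte-like members gave 0 with DESeq2, 7 after thinning, 15 with stricter exclusion, 0 with the newer form, 17 with the robust prior, 0 with both and 14 to 25 without 1 mouse. Against smooth muscle cells, all members gave 240 calls, and 54 with DESeq2, 467 with no filter, 92 after thinning, 111 with the upper limit, 44 with the threshold of 16, 17 with stricter exclusion, 83 in the 499 (13 with DESeq2, 33 without Scrublet calls), 83 in pericyte-like members and 13 to 494 without 1 mouse. Pericyte-like members gave 13 with DESeq2, 23 after thinning, 39 with the newer form, 38 with both and 29 to 64 without 1 mouse.

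Aged minus adult, the share of members was -0.712 percentage points, -0.356 with the threshold of 16, -0.296 with the rule after thinning, -0.253 for the 499 and -0.296 for pericyte-like members. As a share of mural barcodes the difference was -11.3 points, and -6.00 for the 499. S100a9 changed sign in pericyte-like members with stricter exclusion (0.18) and without adult replicate 2 (0.33, the omission of single mice giving -5.06 to 0.33), and Ifi27l2a in all members with the upper UMI limit (-1.41) and the threshold of 16 (-0.36). The cause of these shifts was not tested. Every count rests on 2 mice an age. Leaving out 1 mouse leaves 1 in its group, with the spread then from the other group alone. With 220080 to 514455 UMIs a mouse in pericyte-like members, genes of low level could not be tested.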

Other observations

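Among all members 3 of the 14 astrocyte markers tested, Gja1, Slc1a3 and Aldoc, were called lower in aged mice, where 14 of all 11962 genes were, and 12 of the 14 had a negative change. The gap junction gene Gja1 stood at 57.1, 47.1, 17.2 and 10.5 CPM (log2 change -1.89 ± 0.24 SE, edgeR adjusted p = 0.029), the glutamate transporter Slc1a3 at 68.9, 77.1, 36.6 and 33.9 CPM (-1.05 ± 0.16, adjusted p = 0.040) and the receptor Gpr37l1 at 39.9, 44.8, 13.1 and 17.3 CPM (-1.49 ± 0.21, adjusted p = 0.034). In the 499 barcodes with the 4 genes Gja1 changed by -3.01 (adjusted p = 0.00014, edgeR) and Gpr37l1 by -2.64 (adjusted p = 6.8e-05, edgeR). In the 387 barcodes with at most 2 microglial and at most 2 astrocyte UMIs, a limit that itself bears on astrocyte genes, Slc1a3 changed by -0.08 (adjusted p = 0.99, edgeR), and Gja1 and Gpr37l1 were too low to be tested. These genes were named after their values were seen in the 499.

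Of the 154 members low in the 4 genes, those with Ttr above 10% of UMIs numbered 49, 33, 16 and 15, which was 0.622%, 0.385%, 0.241% and 0.191% of the barcodes within the limits, and both aged mice were lower. Their median depth was 107657, 118685, 100982 and 69285 UMIs. The 41 unnamed members numbered 19, 16, 4 and 2. No test was made of these numbers.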
